A study of Homo sapiens with 4 samples.

Results

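The genes described here are 10 genes of the piRNA pathway: MAEL, PIWIL1, PIWIL2, PIWIL4, TDRD1, TDRD9, TDRD12, ASZ1, MOV10L1 and GTSF1. They were picked by symbol from 17958 genes measured on Affymetrix arrays, and each was represented by the only probe set whose annotation names that gene alone. The arrays held total RNA of HCT116, an established human colorectal carcinoma line. In the treated group (5aza, 2 arrays) the medium was replaced 24 hours after seeding by medium with 1 µM 5-aza-2'-deoxycytidine. This drug is an analog of deoxycytidine that traps DNA methyltransferases on DNA. A repeat dose was given at 48 hours. The control group (vehicle, 2 arrays) was collected at the same time, 72 hours after the start, and the vehicle is not named in the sources used here. Both groups are the same cell line with no further genetic change given, and nothing says whether the numbered samples were separate cultures. The p-values therefore set the difference between the groups against the spread between arrays of a group, part or all of which may be technical. They hold for these 4 samples only.

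PIWI-interacting RNAs (piRNAs) are small RNAs of the animal germ line. They guide Argonaute proteins of the PIWI clade to transposon transcripts, which are cut, and in fetal male germ cells of the mouse they also guide DNA methylation of the transposons themselves. The pathway needs nucleases and helicases that make piRNAs from long precursors, tudor domain proteins that bind methylated arginines of PIWI proteins, and factors that hold these parts together at mitochondria and in germ granules. Many of its genes are silent in somatic tissues, where methylation of CpG-rich promoters accompanies the silence of a number of germline genes.

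Of the 10 genes, 6 were higher on the 5aza arrays by at least 2-fold, and 4 of these by more than 16-fold. MAEL, a germ granule protein with an HMG box, was 52.5-fold higher. The PIWI protein gene PIWIL2 was 31.5-fold higher, and the tudor domain genes TDRD1 and TDRD12 were 27.6-fold and 19.3-fold higher. PIWIL4 and TDRD9 were 4.26-fold and 3.93-fold higher. PIWIL1 fell by 0.58 on the log2 scale, and ASZ1, MOV10L1 and GTSF1 did not pass the test.

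Promoter sequences are shown for 6 of the genes, because the treatment acts on cytosine methylation and the fold changes of these genes span the whole range among the 10 genes. They are the 250 bases before an annotated start (RefSeq, build GRCh38.p14), written 5′ to 3′ on the gene's strand. The start used by HCT116 cells was not determined, and methylation was not measured. For MAEL the window before the second of its annotated starts is shown (chr1:166989030-166989279, plus strand), for TDRD1 that before the first (chr10:114179037-114179286, plus strand), and for TDRD12 the only entry (chr19:32719517-32719766, plus strand). In these 3 genes, all higher in 5aza by over 16-fold, capitals mark the E-box hexamer CACGTG. The windows before the other MAEL start and of TDRD9, which also rose, lack this hexamer and are not shown. The window of MOV10L1, which had no call, also lacks it and is not shown. CpG dinucleotides are not marked separately in these 3 sequences, which hold 22 (MAEL), 13 (TDRD1) and 20 (TDRD12). The sequences of PIWIL1, ASZ1 and GTSF1 below hold 22, 21 and 8.
MAEL: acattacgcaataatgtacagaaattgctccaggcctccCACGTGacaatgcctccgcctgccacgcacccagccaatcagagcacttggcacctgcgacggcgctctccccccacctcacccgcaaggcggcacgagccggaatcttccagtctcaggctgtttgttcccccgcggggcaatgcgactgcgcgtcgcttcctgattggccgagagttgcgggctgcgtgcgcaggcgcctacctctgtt
TDRD1: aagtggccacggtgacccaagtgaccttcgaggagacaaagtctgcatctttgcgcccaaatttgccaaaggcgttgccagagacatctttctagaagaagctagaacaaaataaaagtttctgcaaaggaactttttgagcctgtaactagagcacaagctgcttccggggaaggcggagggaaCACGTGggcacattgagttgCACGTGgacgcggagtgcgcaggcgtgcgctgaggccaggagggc
TDRD12: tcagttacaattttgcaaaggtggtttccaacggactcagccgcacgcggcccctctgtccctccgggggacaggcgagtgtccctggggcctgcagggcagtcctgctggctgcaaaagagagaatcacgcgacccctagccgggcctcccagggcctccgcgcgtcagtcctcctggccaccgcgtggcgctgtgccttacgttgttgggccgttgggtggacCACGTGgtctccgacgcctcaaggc
The other sequences are of genes that did not rise, and capitals mark each CpG dinucleotide, the target of the methyltransferases: PIWIL1 (chr12:130337637-130337886, plus strand), ASZ1 (chr7:117427494-117427743, minus strand) and GTSF1 (chr12:54473603-54473852, minus strand).
PIWIL1: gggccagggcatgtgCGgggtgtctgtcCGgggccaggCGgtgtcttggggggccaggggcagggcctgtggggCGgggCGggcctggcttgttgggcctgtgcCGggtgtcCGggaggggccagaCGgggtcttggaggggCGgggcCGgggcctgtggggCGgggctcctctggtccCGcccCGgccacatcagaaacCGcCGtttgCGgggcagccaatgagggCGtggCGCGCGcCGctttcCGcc
ASZ1: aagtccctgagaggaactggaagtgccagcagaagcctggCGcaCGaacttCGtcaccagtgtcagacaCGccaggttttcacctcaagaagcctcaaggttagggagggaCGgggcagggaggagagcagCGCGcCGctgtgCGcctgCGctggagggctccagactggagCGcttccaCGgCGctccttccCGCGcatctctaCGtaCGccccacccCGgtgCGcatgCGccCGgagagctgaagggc
GTSF1: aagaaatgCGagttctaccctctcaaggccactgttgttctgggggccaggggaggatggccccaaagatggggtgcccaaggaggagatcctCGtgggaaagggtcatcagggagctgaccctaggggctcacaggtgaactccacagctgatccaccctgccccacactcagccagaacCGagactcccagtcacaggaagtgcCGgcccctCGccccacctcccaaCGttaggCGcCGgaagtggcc

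Levels are log2 values made by the authors with the RMA method, so a difference of 1 is a 2-fold difference. A rise or a fall is a difference with a Benjamini-Hochberg adjusted p under 0.05 in limma's test over all 17958 genes. For 1 gene alone, the smallest p an exact permutation test could give with 2 arrays a group is 0.333, and the calls depend on the variance that limma pools over genes. By this rule 7 of the 10 genes were called, where 28.0% of all genes were. Of the 10, 6 rose, where 12.4% of all genes did, and 1 fell, where 15.6% of all genes did. Rises of at least 2-fold were found for the same 6 genes, against 5.05% of all genes, and rises of at least 16-fold for 4, against 0.407%. No overlap between 5aza and vehicle arrays was seen for 7 of the 10 genes, 6 with 5aza higher and 1 with 5aza lower. Over all genes 65.8% did not overlap, 26.3% with 5aza higher and 39.5% with 5aza lower. The median log2 fold change was 2.03 over the 10 genes and -0.07 over all genes. The table has no detection calls, so whether a low level lies above background was not determined, and folds from low levels hold on this scale alone. No gene is called more abundant than another, because their probes differ.

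Correlations across probe sets were 0.992 between the 5aza arrays, 0.995 between the vehicle arrays, and 0.966 to 0.971 between arrays of different groups. In all, 2229 genes rose and 2794 fell, and after centring the arrays on housekeeping genes 2245 rose and 1459 fell. Of 12 colorectal epithelial markers, 2 rose and 5 fell, where 12.4% of all genes rose and 15.6% fell. EPCAM, the epithelial adhesion molecule, was among those that fell, with 11.14 and 11.04 on the 5aza arrays, against 11.79 and 11.82 on the vehicle arrays. KRT18 and CDX2 rose, by 0.44 and 0.70 on the log2 scale, and the median log2 fold change of the list was -0.04. Of 17 fibroblast, endothelial and leukocyte markers 7 rose and 1 fell, against the same 12.4% and 15.6% of all genes. The rises were of CD3D, PECAM1, CD68, CD14, CD3E, COL1A1 and PDGFRA, the fall was of KDR, and 9 had no call. The summed log2 level of the 17 was 85.6 to 85.8 on the 5aza arrays and 76.2 to 77.6 on the vehicle arrays, with a median log2 fold change of 0.25. Of 12 other markers of male germ cells and testis soma 2 rose, DAZL and STRA8, and 0 fell, against the same 12.4% and 15.6%. That list's summed log2 level was 63.4 to 64.1 in 5aza, against 56.0 to 57.5 in vehicle. DAZL alone was 6.79 higher in 5aza, and the median log2 fold change of the list was -0.09. At an unadjusted p under 0.05, 2 of its genes were higher and 3 lower. No marker has a level of 0 in this table. The part of these markers in the results was not tested. More cells with a transcript and more transcript per cell cannot be told apart in RNA of whole cultures.

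**Figure D1:**
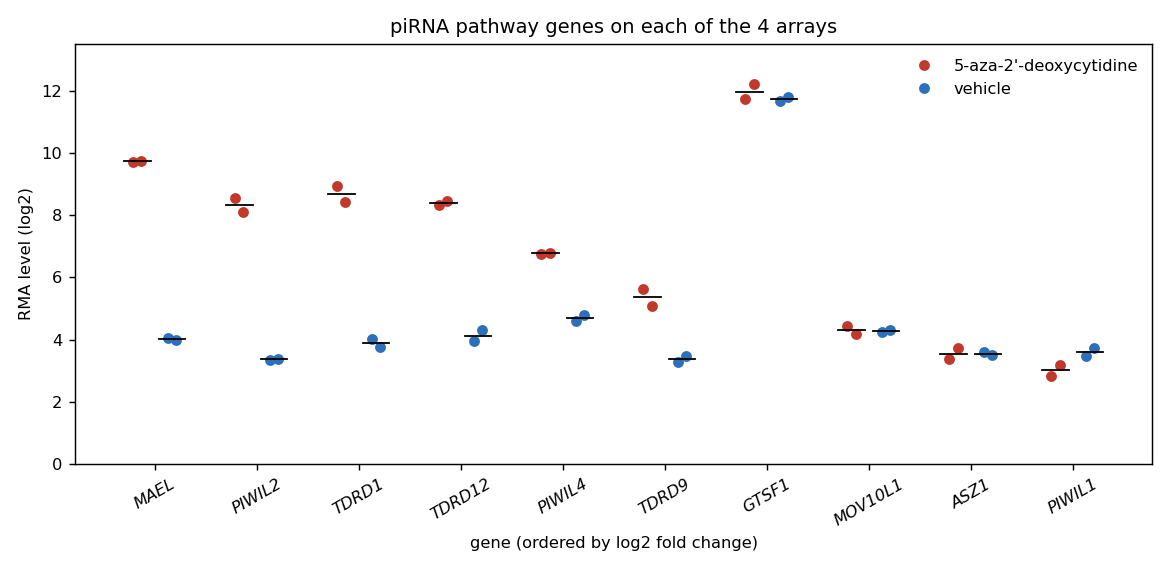
RMA level (log2, vertical axis) of each of the 10 genes on each array, with 5aza (red) left of vehicle (blue). Points are single arrays and bars the mean of 2 arrays. For MAEL, PIWIL2, TDRD1, TDRD12, PIWIL4 and TDRD9 both 5aza points lie above both vehicle points, and for PIWIL1 below them.

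The PIWI proteins are the effectors that carry piRNAs, and among their genes there were rises and a fall. PIWIL2, whose mouse counterpart loads piRNAs in the cytoplasm and cuts transposon transcripts, read 8.56 and 8.11 on the 5aza arrays, against 3.34 and 3.38 on the vehicle arrays. The 5aza arrays thus differed by 0.45, a small part of the difference between the groups. PIWIL2 averaged 8.34 ± 0.32 in 5aza and 3.36 ± 0.03 in vehicle (SD, n = 2 each), which is 4.98 higher on the log2 scale (SE 0.17, adjusted p = 6.31e-06). It ranked 29 from the top among all 17958 fold changes.

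PIWIL4, whose mouse counterpart enters the nucleus of fetal male germ cells and directs methylation of transposons, read 6.76 and 6.78 on the 5aza arrays, against 4.59 and 4.77 on the vehicle arrays. The 5aza arrays differed by 0.02 and the vehicle arrays by 0.19, and the groups lay far apart. The log2 fold change was 2.09 (SE 0.12, adjusted p = 6.39e-05).

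PIWIL1, which in the mouse acts in meiotic and later male germ cells, read 2.84 and 3.19 on the 5aza arrays, against 3.47 and 3.71 on the vehicle arrays. Both 5aza values were the lower ones, at the dim end of the scale. It fell by 0.58 on the log2 scale (SE 0.16, adjusted p = 0.0364). This call was lost without 5aza replicate 1 (adjusted p = 0.0848), without vehicle replicate 1 (0.0685), without vehicle replicate 2 (0.221) and with housekeeping centring (0.0621). PIWIL3, the PIWI gene outside the 10, which is known from oocytes, read 5.07 and 4.73 in 5aza, against 3.63 and 3.96 in vehicle. It rose 2.15-fold (log2 fold change 1.11, SE 0.17, adjusted p = 0.00415). In all, 3 of the 4 PIWI genes on the array rose. Cross-hybridization among these related genes was not assessed, as no probe sequences were used.

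MAEL is needed for transposon silencing in mouse male germ cells, and had the largest fold change of the 10. It read 9.72 and 9.74 on the 5aza arrays, against 4.05 and 3.98 on the vehicle arrays. The arrays within a group differed by at most 0.08. MAEL averaged 9.73 ± 0.01 in 5aza and 4.01 ± 0.05 in vehicle (SD, n = 2 each), which is 5.71 higher on the log2 scale (SE 0.11, adjusted p = 1.40e-06). It ranked 12 from the top among all genes.

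The tudor domain proteins of the set bind PIWI proteins, and the genes of all 3 rose. TDRD1, a scaffold of germ granules that binds the mouse counterpart of PIWIL2, read 8.92 and 8.41 on the 5aza arrays, against 4.01 and 3.74 on the vehicle arrays. Its group means were 8.66 ± 0.36 in 5aza and 3.88 ± 0.19 in vehicle (SD, n = 2 each), 4.79 apart on the log2 scale (SE 0.19, adjusted p = 1.32e-05). The spread of the 5aza arrays was wider than for MAEL, but the groups were far from overlapping.

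TDRD12, which joins tudor domains to a helicase domain and takes part in making secondary piRNAs in the mouse, read 8.34 and 8.46 on the 5aza arrays, against 3.96 and 4.30 on the vehicle arrays. Here the vehicle arrays varied more than the 5aza arrays. The log2 fold change was 4.27 (SE 0.15, adjusted p = 7.52e-06).

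TDRD9, a tudor domain helicase that works with the mouse counterpart of PIWIL4, read 5.63 and 5.07 on the 5aza arrays, against 3.29 and 3.47 on the vehicle arrays. Its 5aza arrays differed by 0.56, the widest gap within a group among the 10 genes, and the rise was the smallest of the 6. The log2 fold change was 1.98 (SE 0.19, adjusted p = 6.23e-04).

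ASZ1 and MOV10L1 act early, in the making of piRNAs. ASZ1, a protein of the mitochondrial surface that anchors the processing machinery, read 3.39 and 3.71 in 5aza, against 3.60 and 3.50 in vehicle. The 5aza values lay on either side of the vehicle values. The log2 fold change was 0.00 with a 95% interval of -0.34 to 0.35 (adjusted p = 0.997).

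MOV10L1, the helicase that binds piRNA precursors, read 4.42 and 4.17 in 5aza, against 4.24 and 4.29 in vehicle, again with overlap. Its log2 fold change was 0.03 (95% interval -0.28 to 0.34, adjusted p = 0.896). Both intervals lie below a 2-fold rise on this scale, on which changes near background are usually compressed. MOV10, the paralog of MOV10L1 active in somatic cells, read 9.80 and 9.96 in 5aza, against 10.47 and 10.58 in vehicle. MOV10 fell by 0.64 on the log2 scale (SE 0.12, adjusted p = 0.00960), and this call was lost without vehicle replicate 1 (adjusted p = 0.0520) and without vehicle replicate 2 (0.0894).

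GTSF1, a small zinc finger protein that helps PIWI proteins cut their targets, was not called. It read 11.72 and 12.22 in 5aza, against 11.67 and 11.80 in vehicle. The probe set was bright on all 4 arrays, and the lower 5aza value lay between the vehicle values. The log2 fold change was 0.23 (SE 0.18, 95% interval -0.19 to 0.66, adjusted p = 0.383). Without 5aza replicate 1 it was 0.49 and passed the test (adjusted p = 0.0325), and without 5aza replicate 2 it was -0.02. The paralog GTSF1L read 3.87 and 3.78 in 5aza, against 3.77 and 3.83 in vehicle, with no call (adjusted p = 0.899).

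**Figure D2:**
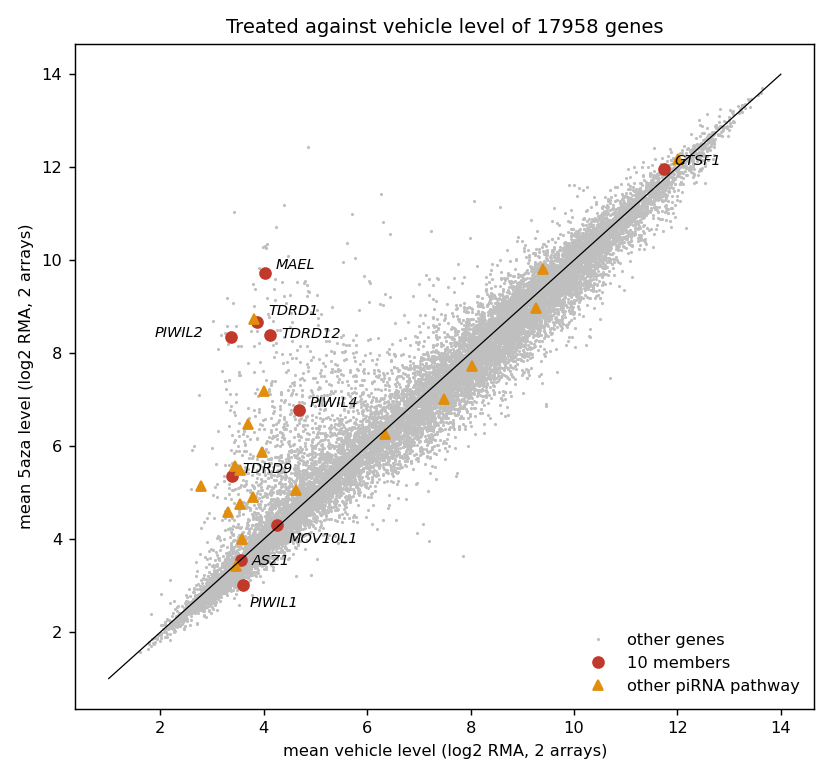
Mean 5aza level against mean vehicle level (log2 RMA, 2 arrays each) for 17958 genes. The 10 genes are red circles, the other piRNA pathway genes orange triangles, and the line marks equal levels. MAEL, PIWIL2, TDRD1 and TDRD12 lie far above the line, while GTSF1 lies near it at the bright end.

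Other genes of the pathway rose as well. Of 21 further pathway genes listed, 19 had a probe set of their own, of which 11 rose and 1 fell, with a median log2 fold change of 1.11. Over all genes 12.4% rose and 15.6% fell. Of the rises 10 were of at least 2-fold, where 5.05% of all genes rose that much. FKBP6, a partner of the chaperone that loads PIWI proteins in the mouse, read 8.97 and 8.52 in 5aza, against 3.97 and 3.65 in vehicle, a 30.6-fold rise (log2 SE 0.19, adjusted p = 1.00e-05). It was the only gene of this list above 16-fold.

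PNLDC1, the exonuclease that trims piRNA precursors, read 7.47 and 6.89 in 5aza, against 4.04 and 3.96 in vehicle. It rose 9.04-fold (adjusted p = 7.49e-05). HENMT1, the methyltransferase that protects the trimmed end, read 4.69 and 4.83 in 5aza, against 3.71 and 3.37 in vehicle, and rose 2.32-fold (adjusted p = 0.00165).

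DDX4, the Vasa helicase used as a germ cell marker, rose 6.93-fold, with 6.53 and 6.44 in 5aza, against 3.48 and 3.91 in vehicle (adjusted p = 6.32e-05). Among further tudor domain genes RNF17 rose 5.11-fold, TDRD6, a component of the chromatoid body of mouse spermatids, 3.74-fold, and STK31 2.41-fold. TEX15 and MORC1, both needed for transposon silencing in mouse male germ cells, rose 3.86-fold and 4.32-fold. Adjusted p was at most 0.00295 for these 5 genes. The remaining rise was of WDR77, the partner of the arginine methyltransferase PRMT5 that is also active in somatic cells, by 0.39 on the log2 scale (adjusted p = 0.0463). The WDR77 call was lost without 5aza replicate 2 and without either vehicle replicate (adjusted p 0.0813, 0.334 and 0.183), and with housekeeping centring (0.0521).

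The remaining genes of the list of further pathway genes did not rise, among them the tudor domain genes TDRKH and TDRD5. TDRKH, a mitochondrial tudor domain protein that binds PIWI proteins during trimming, read 7.04 and 6.99 in 5aza, against 7.53 and 7.44 in vehicle. TDRKH fell by 0.47 on the log2 scale (SE 0.12, adjusted p = 0.0235), a call lost without vehicle replicate 1 (adjusted p = 0.211), without vehicle replicate 2 (0.122) and with housekeeping centring (0.126). PLD6, the mitochondrial nuclease of the pathway, had a log2 fold change of -0.30 (adjusted p = 0.110). MYBL1, the transcription factor that activates piRNA genes in meiosis of the mouse, read 9.08 and 8.87 in 5aza, against 9.29 and 9.22 in vehicle. It was lower without overlap, as were 39.5% of all genes, but did not pass the test (log2 fold change -0.28, adjusted p = 0.148). PRMT5, DNMT3L, TDRD5, SPOCD1 and EXD1 also had no call, with log2 fold changes between -0.07 and 0.43. Of these, PRMT5, DNMT3L and TDRD5 were higher without overlap (adjusted p 0.366, 0.0581 and 0.0556), as were 26.3% of all genes.

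Argonaute genes of the somatic small RNA pathways were not called. In a list of 16 genes for microRNA machinery and for somatic paralogs of the pathway, 1 rose and 2 fell, counts near the 12.4% and 15.6% over all genes. None changed by 2-fold, where 907 of all 17958 genes rose and 470 fell by at least that much. The median log2 fold change was -0.06. The list's median vehicle level was 9.5, against 3.95 for the 10 genes. AGO1, AGO2, AGO3 and AGO4, the somatic relatives of the PIWI genes, had log2 fold changes of 0.09, 0.22, 0.20 and -0.14, and none passed the test. DICER1, which cuts microRNA precursors, rose 1.42-fold (log2 fold change 0.50, adjusted p = 0.0169). The falls were of MOV10 and of TDRD3, a tudor domain protein of somatic cells (log2 fold change -0.47, adjusted p = 0.0446). The DICER1 call was lost without vehicle replicate 1 (adjusted p = 0.143) and without vehicle replicate 2 (0.134). The TDRD3 call was lost without each single array and under both other scalings (adjusted p between 0.0547 and 0.356). The difference between this list and the 10 genes was not tested.

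**Figure D3:**
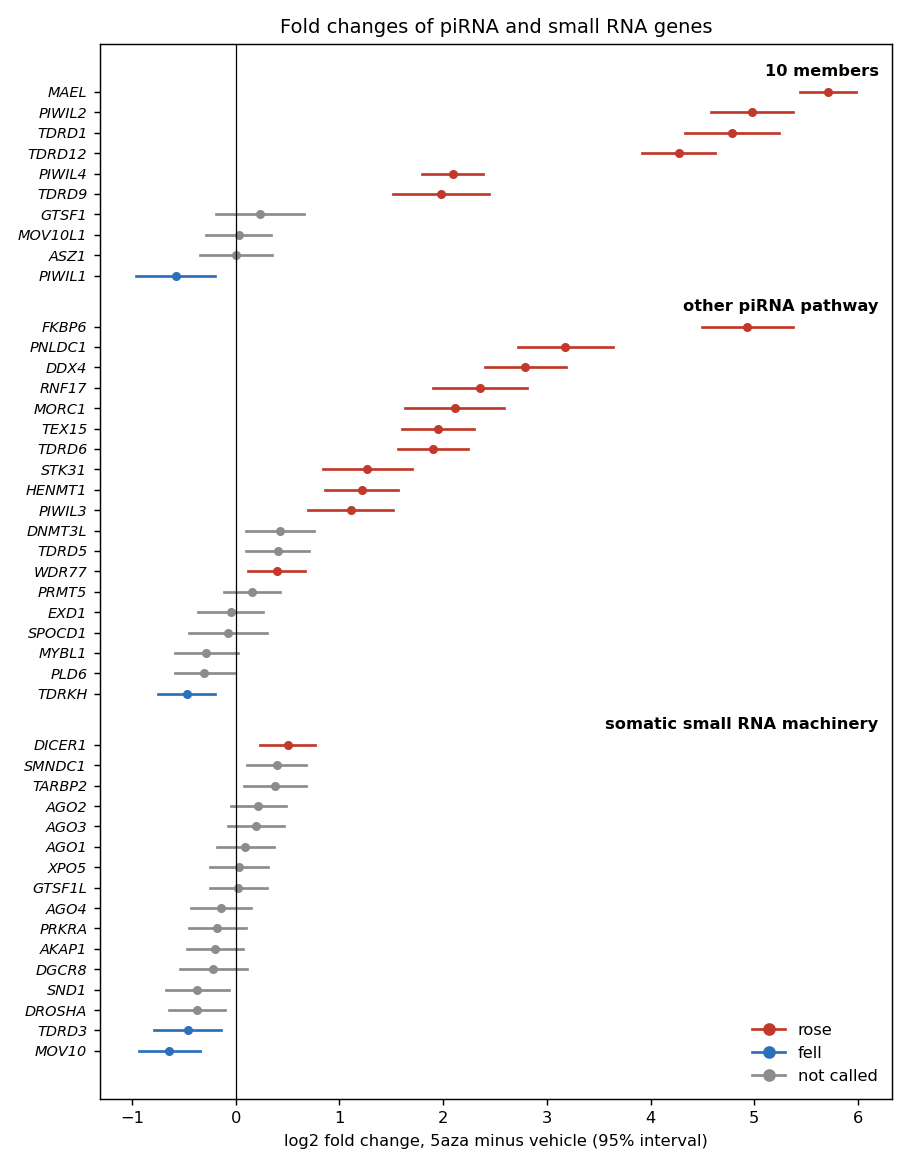
Log2 fold change, 5aza minus vehicle (horizontal axis), with 95% interval for the 10 genes, the other piRNA pathway genes and the somatic small RNA genes. Red marks a rise, blue a fall and grey no call. Log2 fold changes of the 10 genes run from -0.58 to 5.71 and those of the somatic genes from -0.64 to 0.50.

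The promoter windows were compared with those of all 35116 RefSeq entries, as a description of sequence and not of binding. Of the 10 genes 8 matched, all but PIWIL2 and PIWIL4, with 10 entries. The windows held 8 to 51 CpG dinucleotides with a median of 21.5, against a median of 11 over all entries and of 17 over the entries of genes tested. Among these 8 genes the CpG count did not separate those that rose from the others. The windows of genes that rose held 13 to 51, and those of the others 8 to 33. The MAEL, PIWIL1 and ASZ1 windows printed above have 22, 22 and 21 CpG, and the log2 fold changes of these genes were 5.71, -0.58 and 0.00. The window before the other MAEL start holds 51 CpG, so the match in count depends on which start is taken. GTSF1, bright in both groups, had 8 CpG in its window, the lowest of the 8 genes. TDRD9 and MOV10L1 had 35 and 33, with log2 fold changes of 1.98 and 0.03.

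A search for 3 motifs was made on both strands, with the fold changes already known. They were CACGTG, the E-box of MAX and its partners, TCCCGC, an E2F-type motif, and CAGTTG, which holds the core bound by MYB proteins. The E-box and the E2F-type motif each contain a CpG. The E-box was in windows of MAEL, TDRD1 and TDRD12, the 3 genes with an entry whose rise exceeded 16-fold, and in no window of the other 5 genes, while 6.34% of all entries and 7.35% of entries of tested genes hold it. In the TDRD1 sequence above there were 2 copies, starting 65 and 45 bases before the start. In TDRD12 the copy began 25 bases and in MAEL 211 bases before the start. The window before the other MAEL start had no copy, and the TDRD1 entries overlap and share their copies. The shares over all entries are per entry, while MAEL and TDRD1 had 2 entries each. Those shares are also not matched for CpG count, whose median was higher over the windows of these 8 genes. TCCCGC was in the windows of PIWIL1 and ASZ1 (29.8% of entries of tested genes), and CAGTTG in none of the 8 genes (8.1% of entries of tested genes). Of 14 other pathway genes with an entry, 4 held CACGTG: PNLDC1, MORC1 and STK31, which rose, and TDRD5, which had no call. FKBP6, the gene of that list with a rise above 16-fold, had no copy in its window.

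**Figure D4:**
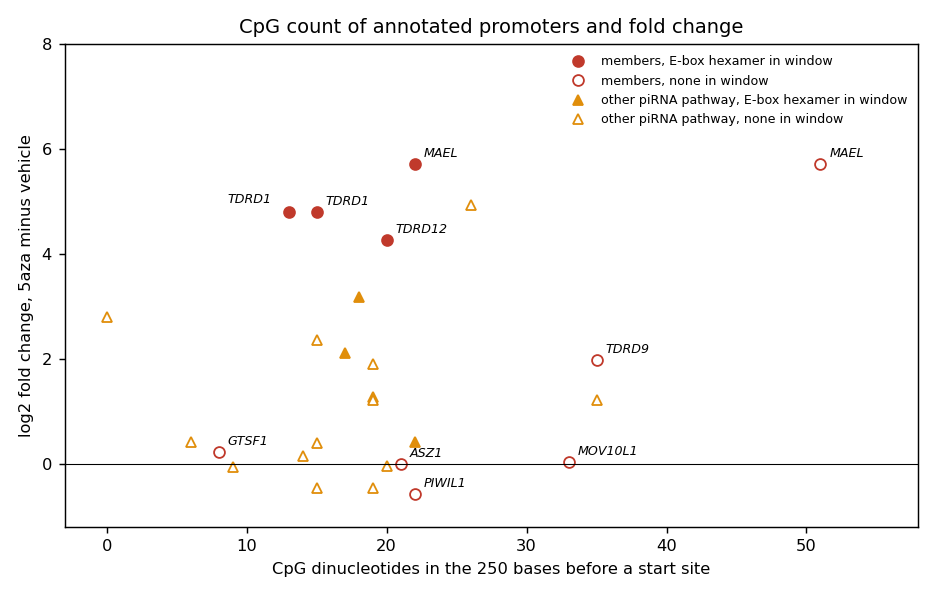
Number of CpG dinucleotides in the 250 bases before an annotated start (horizontal axis) against log2 fold change, 5aza minus vehicle, for entries of the 10 genes (circles) and of other piRNA pathway genes (triangles). Filled points hold the E-box hexamer CACGTG. MAEL and TDRD1 appear with 2 starts each. Genes near 20 CpG span log2 fold changes from -0.58 to 5.71.

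The 10 genes lie on 9 chromosomes, with PIWIL1 and GTSF1 both on chromosome 12, and the genes next to them had log2 fold changes below 1, where 5.05% of all genes rose by at least 2-fold. For each, the nearest tested gene on either side was taken, 20 in all. Of these 4 rose and 0 fell in limma's test, where 12.4% of all genes rose and 15.6% fell. Their log2 fold changes had a median of 0.10, and the range was -0.39 to 0.99. The rises were of FUT4 and AMOTL1 beside PIWIL4 (0.53 and 0.39) and of ITGA5 and NCKAP1L beside GTSF1 (0.75 and 0.99). The neighbours of MAEL, ILDR2 and GPA33, had log2 fold changes of 0.30 and -0.23 with no call. The neighbours of PIWIL2, TDRD1, TDRD9 and TDRD12 also had no call.

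Probe sets with the most similar readings were sought for MAEL and PIWIL2, by the smallest Euclidean distance over the log2 values of the 4 arrays. Similar readings of different probes do not show equal abundance, and the similar fold changes follow from this choice. For MAEL they were PRAMEF2, BRDT and CCNA1, at distances of 0.50, 0.51 and 0.60, with 51.6-fold, 41.7-fold and 60.7-fold higher levels in 5aza. For PIWIL2 they were SSX3, ELOVL4 and LIN28B, at distances of 0.28, 0.30 and 0.38, with 36.4-fold, 37.4-fold and 29.8-fold higher levels. PRAMEF2 and SSX3 belong to families of near-identical genes, so their values are uncertain.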

How the data were processed

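Total RNA of 2 5aza and 2 vehicle samples was measured, 1 sample per array. The authors deposited log2 levels of probe sets, computed by RMA (background correction, quantile normalization, probe summary) in Affymetrix Expression Console, per the submitters' processing notes. Software versions and genome build were not given in the sources used here. Quantile normalization hides changes of total RNA per cell.

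Of 33297 probe sets, 19181 carried 1 gene symbol in the platform annotation. For a gene with several, the brightest by mean over the 4 arrays was kept, which left 17958 genes. The test was limma's (version 3.58.1, run under R 4.3.3; two-sided, without covariates, Benjamini-Hochberg adjustment over all genes), and the fit was tested on simulated data. No filter on dim genes was applied. The number of arrays limits the precision.

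The 10 genes, the lists and the motifs were chosen with earlier results of these data known. Named were all 10 genes, called genes of the other pathway and somatic lists, PIWIL3, DDX4 and MOV10, and the 3 genes nearest in level to the 2 members with the highest fold change. Further genes were named after their values were seen. Alternatives covered arrays left out, a replicate block, scaling, a filter, the variance prior and the probe set rule.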

Additional observations from a re-analysis of the deposited data

How the results depend on the processing

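Across 10 alternatives, the rises of MAEL, PIWIL2, PIWIL4, TDRD1 and TDRD12 passed under all 10, and that of TDRD9 under the 9 that tested it. Their lowest log2 fold changes were 5.68, 4.75, 1.99, 4.53, 4.11 and 1.70. The filter on dim genes is no separate support, because the 5aza levels count toward the mean it uses. Nor is the mean of a gene's probe sets, because the 10 genes had no other probe set to average. Of 298 values for 31 named genes, 276 stayed on their side of the threshold, 21 lost a call, 1 gained it, and 0 called values changed direction.

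With 1 array left out, the 10 genes had 6 to 7 rises and 0 to 1 falls, other pathway genes 10 to 12 rises and 0 to 1 falls, somatic small RNA genes 0 to 2 rises and 0 to 3 falls, and all genes 1267 to 2530 rises and 1196 to 3401 falls. Without vehicle replicate 1 or 2 all genes had 1267 or 1335 rises. Housekeeping centring left 0 falls among the 10 genes, 0 among other pathway genes, 1 among somatic genes and 1459 over all. Without the dimmest 33.3% of genes, 6 of the 10 genes were tested with 5 rises and 0 falls, 8 other pathway genes with 3 rises, and 3 somatic genes rose. That filter used the mean over all 4 arrays, so genes dim in vehicle could pass it through a high 5aza level. Its counts of rises are therefore no support for the rises. Repeated quantile normalization gave 3 somatic rises and 1 fall, and a trended robust prior 2 and 4. The causes of these shifts in the counts were not tested.

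Replicate numbers are shared between groups, but no label says that they pair samples. Deviations of same-numbered arrays correlated at 0.266 across genes. With the replicate block the 10 genes kept the counts of 6 rises and 1 fall, other pathway genes had 13 and 1, somatic genes 3 and 4, and all genes 2805 and 3834.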
